A study of Mus musculus with 4 samples.

Results

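In this comparison 10 genes of blood vessel formation were read between metanephric mesenchyme (MM), the kidney-forming mesenchyme, and intermediate mesoderm (IM), the mesoderm that gives rise to the urogenital system. They were the receptor tyrosine kinases Kdr, Flt1, Flt4, Tek and Tie1, the endothelial surface proteins Pecam1 and Cd34, and the secreted growth factors Vegfa, Vegfc and Angpt1. Every probe whose platform gene symbol was one of these 10 was taken, out of 15096 symbols on the array, which gave 11 of 22702 probes, with 2 for Angpt1. Of the 11, 10 were measured throughout and entered the test, together with all probes of which that was true, 14184 in number. Of these 10, 9 lay above the floor of the table on every array.

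Both tissues were dissected from mouse embryos of both sexes at 10.5 days post coitum (dpc), and the sources used here give no strain, number of embryos or pooling. Each of 4 two-colour arrays carried amplified RNA of the MM and IM together, with no reference sample beside them. MM was channel 1 on arrays 1 and 2 and channel 2 on arrays 3 and 4, where the labels read "Intermediate Mesenchyme" and "Metanephric mesoderm", taken here as the same tissues. Values are log2 ratios, and a positive value means higher in MM, the direction the labels make likely without stating each dye.

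Vascular endothelial growth factor A acts mainly through Kdr, the chief signalling receptor of endothelial cells, while Flt1 binds the same ligand tightly and limits its supply. Vegfc acts through Flt4, which is first found on veins and later on lymphatic vessels. Angpt1, made by cells around the vessel, activates Tek (also called Tie2), and Tie1 is a relative of Tek that lacks a well-established ligand of its own and modifies Tek signalling. Pecam1 and Cd34 mark endothelium at this stage, and both are also found on some blood-forming cells. The embryonic kidney mesenchyme contains endothelial precursors and later makes Vegfa itself.

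The upstream sequences of Cd34 and Tie1 are shown because these were the surface protein and the receptor that were higher in MM in both fits described below and had a 250 base window outside the annotated gene. Sequences are from RefSeq, build GRCm38.p6, 5′ to 3′ on the gene's strand. Capitals mark GGAA or its reverse complement TTCC, the core letters bound by ETS factors, which control many endothelial genes. The Cd34 window is chr1:194938571-194938820 on the plus strand, and the Tie1 window is chr4:118489850-118490099 on the minus strand.
Cd34: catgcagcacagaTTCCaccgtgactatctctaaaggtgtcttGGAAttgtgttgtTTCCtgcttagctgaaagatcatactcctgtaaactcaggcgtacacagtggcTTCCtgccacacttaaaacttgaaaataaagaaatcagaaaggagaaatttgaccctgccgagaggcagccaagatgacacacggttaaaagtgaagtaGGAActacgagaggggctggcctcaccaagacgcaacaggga
Tie1: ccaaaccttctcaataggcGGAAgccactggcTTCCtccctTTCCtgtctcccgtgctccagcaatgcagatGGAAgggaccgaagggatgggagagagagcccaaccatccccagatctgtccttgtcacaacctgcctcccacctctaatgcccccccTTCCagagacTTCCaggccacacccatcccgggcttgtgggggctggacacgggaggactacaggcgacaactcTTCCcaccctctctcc

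The Cd34 window held 5 matches to GGAA on either strand and the Tie1 window held 7, against a median of 3 over 32851 promoter windows of the same length. At least 1 such match was present in 93.4% of those windows, so its presence alone sets neither gene apart. Among the other genes of the 10, GGAA had 6 and 2 matches in the windows of Vegfa and 4 each in Kdr and Flt1. It had 2 each in Tek and Flt4 and 1 in Vegfc. Unlike those of Cd34 and Tie1, the windows of Kdr and Flt1 lay inside the annotated gene. So did the Vegfa window with 2 matches, and the Tek window overlapped the start of its gene. The longer AGGAAG, which contains GGAA, had 1 match on either strand in each of the Cd34 and Tie1 windows. It had 2 in that of Flt1, was absent from the others and was present in 29.5% of all windows. GC content was 46.4% for Cd34 and 60.4% for Tie1, with a median of 52.4% over all windows. Of the 10 genes, 8 had an entry in the promoter table; Pecam1 and Angpt1 did not.

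The data gave no single direction for these genes. MM had more Cd34, Pecam1 and Tie1 and less Tek, all by less than 2-fold, and these were the calls that held whether or not the fit had a term for channel orientation. Vegfa was slightly higher and Kdr slightly lower with that term only. Flt1, Vegfc and the fully measured Angpt1 probe did not pass, and Flt4 was at the floor on arrays 3 and 4. In limma with the orientation term, at an adjusted p under 0.05, 4 of 10 tested probes were called higher and 3 lower, where 23.8% of all tested probes were called higher and 38.1% lower. In both fits 3 were called higher and 1 lower, against 13.6% and 14.4% of all tested probes. The median of the 10 mean ratios was 0.15, and that of all tested probes was -0.08. With 10 probes these counts are no result about the group as a whole. In whole tissue fewer cells of a type cannot be told apart from less RNA per cell.

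The arrays limit what can be read from small ratios. Arrays 1 to 4 held 21509, 21599, 15812 and 16242 values, and those at the floor, a ratio of 0.01 or -6.64 on the log2 scale, numbered 16, 8, 1672 and 1805 in array order. Across 13191 probes above the floor, Pearson's r was 0.836 and 0.912 within an orientation and 0.113 to 0.274 between orientations, over probes that are not independent replicates. With probes at the floor included, r between orientations was -0.349 to -0.26. The kidney mesenchyme genes Six2 (3.00 ± 0.63, SD, n = 4) and Gdnf (1.92 ± 0.13) were above 0 on every array, in the direction of the labels. Nothing in the labels tells if arrays came from separate dissections, so the spread behind the p-values is that of these arrays alone and may be technical. With the orientation term, p-values measure the spread between arrays of the same orientation and leave out disagreement between orientations. The printed SDs over 4 arrays include that disagreement, so those p-values do not measure them. For Flt1 the SD was 0.49 and the standard error of the fit was 0.069.

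**Figure D1:**
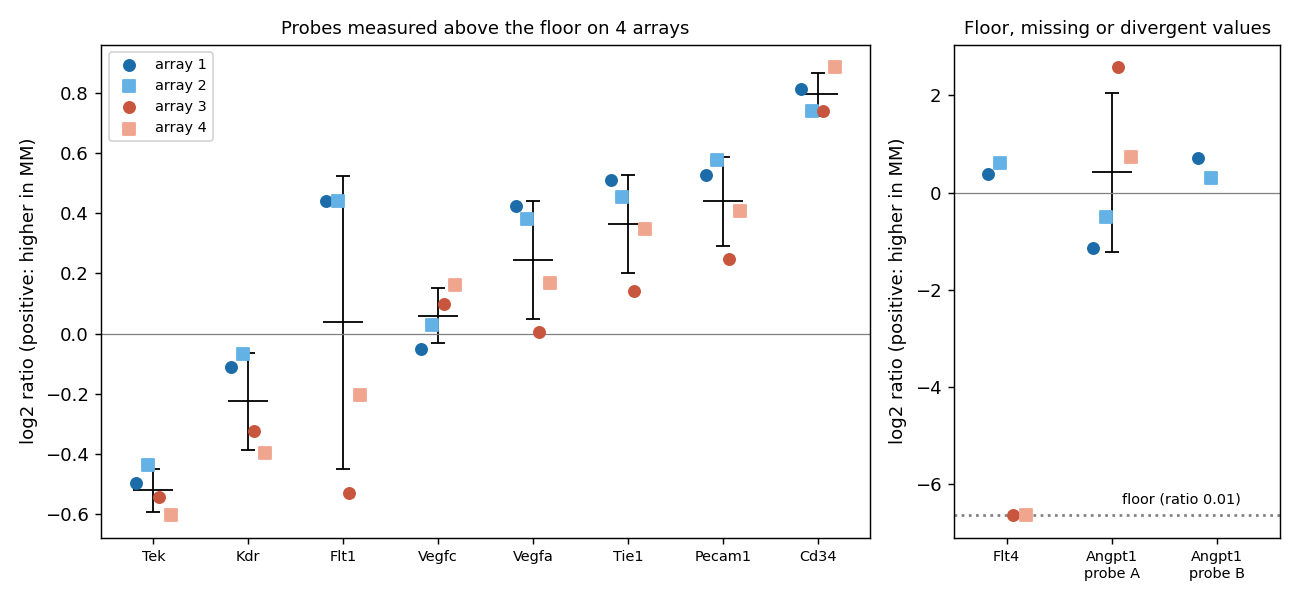
Log2 ratio of MM over IM (vertical axis) for each probe of the 10 genes (horizontal axis), with 1 point per array and the mean ± SD over 4 arrays in black where all values were above the floor. Cd34 lies highest and Tek lowest in the left panel with little spread, while Flt1 is split by orientation; the right panel, on its own scale, shows Flt4 at the floor on arrays 3 and 4 and the 2 Angpt1 probes, of which probe B has values on arrays 1 and 2 only.

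Cd34, a sialomucin of endothelial and blood progenitor cells, had the largest mean ratio of the probes that passed above the floor. Its ratios on arrays 1 to 4 were 0.81, 0.74, 0.74 and 0.89. All 4 arrays were high, and the orientations overlapped. The gene was 1.73-fold higher in MM (log2 0.79 ± 0.07, SD, n = 4, limma adjusted p = 0.0014, and 0.0031 without the orientation term). Its mean was exceeded by 7.33% of tested probes, and 13.1% had a smaller SD.

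Pecam1, an adhesion protein at endothelial cell junctions, had ratios of 0.53, 0.58, 0.25 and 0.41 on arrays 1 to 4. Every array was above 0, with arrays 1 and 2 the higher. The gene was 1.36-fold higher in MM (0.44 ± 0.15, SD, n = 4, limma adjusted p = 0.00434, and 0.0231 without the orientation term). Leaving out array 1 or array 2 ended the call (limma adjusted p = 0.0514 and 0.0542).

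The angiopoietin receptors Tek and Tie1 differed in direction. Tek, the receptor that binds the angiopoietins, had ratios of -0.50, -0.44, -0.54 and -0.60 in array order. All arrays were low and close together. Tek was 1.43-fold lower in MM (log2 -0.52 ± 0.07, SD, n = 4, limma adjusted p = 0.00171, and 0.00654 without the orientation term). For Tie1 they were 0.51, 0.45, 0.14 and 0.35. Every array was above 0, and on each array Tie1 lay above Tek, so the 2 receptors of this family did not change equally. Tie1 was 1.29-fold higher in MM (0.36 ± 0.16, SD, n = 4, limma adjusted p = 0.00927, and 0.0424 without the orientation term). Leaving out array 1 or array 2 ended its call (limma adjusted p = 0.0899 and 0.0812), while that of Tek held without each array in turn (limma adjusted p = 0.0195 to 0.024).

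Angpt1, the activating ligand of Tek, could not be given a direction. Probe A gave -1.13, -0.50, 2.58 and 0.73 on arrays 1 to 4. Its sign turned with the orientation, and array 3 stood well above array 4. The mean of 0.42 ± 1.64 (SD, n = 4) did not pass (limma adjusted p = 0.408), and 90.8% of tested probes had a smaller SD. Probe B, designed on another transcript record, gave 0.71 on array 1, 0.31 on array 2 and no value on the others. On arrays 1 and 2, where both probes have values, they lay on opposite sides of 0.

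Of the receptors for the vascular endothelial growth factors, Kdr was slightly lower in MM. The arrays gave -0.11, -0.07, -0.32 and -0.40 in order. Every array was below 0, but arrays 1 and 2 were close to it. The mean was -0.23 ± 0.16 (SD, n = 4), or 1.17-fold lower, with a limma adjusted p = 0.00939 that became 0.123 without the orientation term. The call was also lost without array 1 (limma adjusted p = 0.0533) and without array 4 (0.0590).

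Flt1, the high-affinity receptor that also exists as a soluble form, was split by orientation. Arrays 1 and 2 both gave 0.44, array 3 gave -0.53 and array 4 gave -0.20, so the orientations lay on opposite sides of 0. The mean of 0.04 ± 0.49 (SD, n = 4) did not pass (limma adjusted p = 0.676). The orientation term did (limma adjusted p = 0.0252), with arrays 1 and 2 higher by 0.81 on the log2 scale. On arrays 1 and 2 alone Flt1 passed as higher (0.44, limma adjusted p = 0.0324), and on arrays 3 and 4 alone it did not pass (-0.37, limma adjusted p = 0.161). Leaving out array 4 turned the mean to -0.05.

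Flt4, the receptor for Vegfc, had ratios of 0.38 on array 1 and 0.61 on array 2 and stood at the floor for the exchanged channels. Arrays 1 and 2 were thus above 0 and the others held no measured fold. The fit called the probe lower in MM (limma adjusted p = 0.000301), a call that rests on the floor and was absent without the orientation term (adjusted p = 0.296). This reading was common: 918 tested probes were at the floor on both arrays 3 and 4, 706 of them were above 0 on both arrays 1 and 2, and 854 of the 918 were called lower. Over all tested probes 7% had a value at the floor.

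Among the ligands of these receptors, Vegfa, the main growth signal for endothelium, had ratios of 0.42, 0.38, 0.0043 and 0.17 on arrays 1 to 4. No array was below 0, and array 3 was close to it. Vegfa was 1.18-fold higher in MM (0.24 ± 0.20, SD, n = 4, limma adjusted p = 0.0159), and the call was lost without the orientation term (adjusted p = 0.143). It was lost too without array 1, array 2 or array 4 (limma adjusted p = 0.111, 0.0988 and 0.0599). Vegfc, the lymphatic growth factor, had ratios of -0.05, 0.03, 0.10 and 0.16. The values straddled 0 with a small spread. Its mean of 0.06 ± 0.09 (SD, n = 4) did not pass (limma adjusted p = 0.195), and with arrays centred on their medians it was 0.12 and passed (limma adjusted p = 0.0427).

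Arrays 1 and 2 lay wholly above arrays 3 and 4 for 7 of the 10 tested probes and wholly below for 2, where 82.3% of all tested probes had orientations that did not overlap. The exception was Cd34. The orientation term passed for 3, Kdr, Flt1 and Flt4, against 44.6% of all tested probes. The sign was the same on 4 arrays for 6 of the 10, against 49.4% of all tested probes. These 6 were Kdr, Tek, Tie1, Pecam1, Cd34 and Vegfa. The median SD was 0.161 over the 10 and 0.224 over all tested probes.

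**Figure D2:**
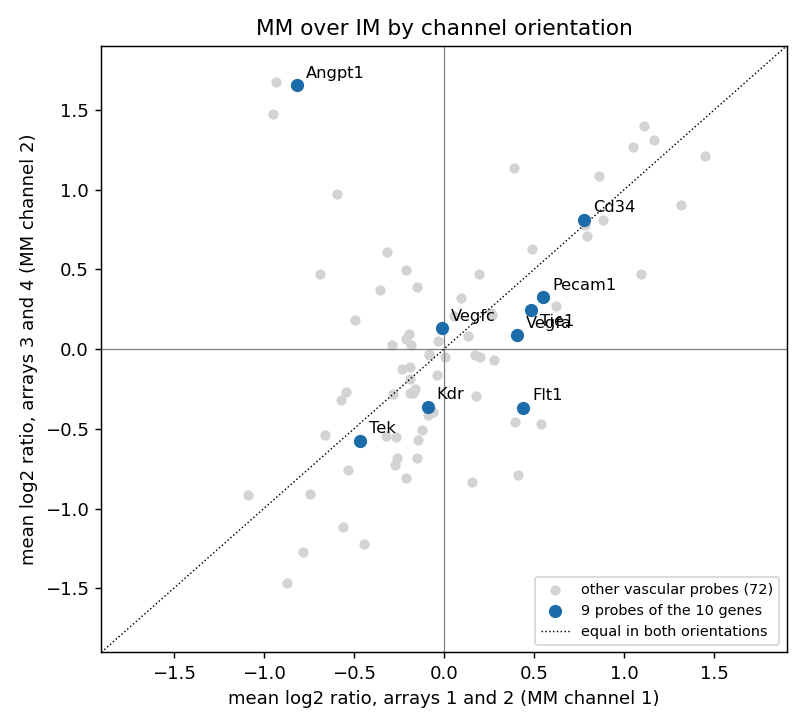
Mean log2 ratio on arrays 1 and 2 (horizontal axis) against that on arrays 3 and 4 (vertical axis) for the 9 probes above the floor (blue) and 72 other probes from the vascular gene lists (grey), with 2 further grey probes beyond the axes at 1.9. Cd34 and Tek lie near the dotted line of equal values, Flt1 and Angpt1 lie far inside quadrants of opposite sign, Vegfc lies just inside one, and Kdr, Vegfa, Tie1 and Pecam1 have the same sign on both axes.

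Other genes of the same pathways were read from lists that overlap in part, with the 10 genes left out. The list of the vascular endothelial growth factor pathway had 12 tested probes, 3 called higher and 6 lower in MM (2 and 3 in both fits), with a median mean ratio of -0.20. That was 25% higher and 50% lower, beside 23.8% and 38.1% of all tested probes (13.6% and 14.4% in both fits). Nrp1, a coreceptor that strengthens Kdr signalling and is typical of arteries, read 1.46, 1.44, 1.12 and 1.30 on arrays 1 to 4. It was 2.52-fold higher in MM (1.33 ± 0.16, SD, n = 4, limma adjusted p = 0.000739). Nrp2, the coreceptor typical of veins and lymphatic vessels, was lower on every array at -0.65, -0.66, -0.51 and -0.57. Its mean was -0.60 ± 0.07 (SD, n = 4, limma adjusted p = 0.00117). The 2 coreceptors were thus on opposite sides of 0 on each array. Plxnd1, a semaphorin receptor of endothelium, was higher (0.85 ± 0.07), and the kinase Prkca (-0.84 ± 0.33) and the adaptor Sh2d2a (-0.45 ± 0.19) were lower in both fits. The oxygen-sensing factor Hif1a had 1.17 on array 1, 0.84 on array 2 and the floor on the remaining arrays. Vegfb, a ligand of Flt1, was lower with the orientation term only (-0.42 ± 0.31, limma adjusted p = 0.00411, and 0.114 without it).

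For the angiopoietin and Tie pathway 5 probes outside the 10 genes could be tested, of which 1 was higher and 2 lower in MM (1 and 0 in both fits), with a median of -0.19. That was 20% and 40%, beside 23.8% and 38.1% of all tested probes (13.6% and 14.4% in both fits). The higher one was Grb14, an adaptor known to bind Tek (1.24 ± 0.11, SD, n = 4, limma adjusted p = 0.000774). Angpt2, the ligand that can oppose Angpt1, gave -0.43 on array 1, -0.64 on array 2 and nothing on the others. Ptprb, the phosphatase that acts on Tek, had a probe at 0.23, 0.07, -0.92 and -0.76 on arrays 1 to 4, which changed sign with orientation, and another at 0.34 and 0.28 on arrays 1 and 2 alone. Direction for this ligand and phosphatase is thus not settled by these arrays.

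With the orientation term, more of the general endothelial genes were called lower in MM than higher, mostly by small ratios. Lower calls were also the more frequent over all tested probes. Of 22 tested probes of the endothelial identity list, 3 were higher and 12 lower in MM, or 13.6% and 54.5%, beside 23.8% and 38.1% of all tested probes. In both fits these counts were 3 and 4, where 13.6% and 14.4% of all tested probes were called. The median mean ratio was -0.17. The receptor subunit Calcrl (1.25 ± 0.25), the junction protein Cldn5 (0.44 ± 0.21) and Plvap of endothelial diaphragms (0.24 ± 0.04) were higher. Procr, the protein C receptor (-1.03 ± 0.29), the adhesion molecule Icam2 (-0.43 ± 0.13), the receptor Acvrl1 (-0.23 ± 0.05) and Emcn (-0.19 ± 0.03) were lower. Cdh5, the endothelial cadherin that defines the lineage, had ratios of 0.29, 0.50, -0.49 and -0.42 in array order. Its mean of -0.03 ± 0.50 (SD, n = 4) did not pass (limma adjusted p = 0.626), and the 2 orientations did not overlap.

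Endothelial transcription factors had 24 tested probes, 7 higher and 9 lower (3 and 3 in both fits), with a median of 0.004. That was 29.2% and 37.5%, beside 23.8% and 38.1% of all tested probes (13.6% and 14.4% in both fits). Hhex (1.11 ± 0.25), which is also made by endoderm, Lmo2 of blood and vessel progenitors (0.78 ± 0.36) and Sox17 of arteries and endoderm (0.75 ± 0.07) were higher in MM. Nr2f2, which specifies veins and is also made by mesenchyme, was 2.00-fold lower (SD 0.11 on the log2 scale, n = 4, limma adjusted p = 0.000801), as were Hey1, a Notch target (-0.82 ± 0.10), and Lyl1 (-0.28 ± 0.02). The lymphatic factor Prox1 had 3.16 on array 1 and 0.54 on array 2 and was otherwise at the floor, as Flt4 was.

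Of 15 tested probes for arterial and venous genes, 5 were higher and 4 lower (4 and 3 in both fits), with a median of -0.07. That was 33.3% and 26.7%, beside 23.8% and 38.1% of all tested probes (13.6% and 14.4% in both fits). Efnb2, the ephrin of arteries, was higher at 0.46, 0.51, 0.66 and 0.60 on arrays 1 to 4 (0.56 ± 0.09, SD, n = 4, limma adjusted p = 0.00143). Cxcr4, a chemokine receptor of arteries and many progenitors, was higher at 0.80, 0.76, 0.78 and 0.78, a mean of 0.78 ± 0.02. The netrin receptor Unc5b was also higher (0.24 ± 0.07). Genes typical of arteries did not all move this way: besides Hey1, Gja4, a connexin of arterial endothelium, had ratios of 0.66, 0.42, -0.45 and -0.50 and did not pass. Ephb4, the venous partner of Efnb2, had a probe at 0.21 ± 0.16 that passed with the orientation term only, and another that gave 2.75 on array 1, 3.66 on array 2 and nothing elsewhere.

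**Figure D3:**
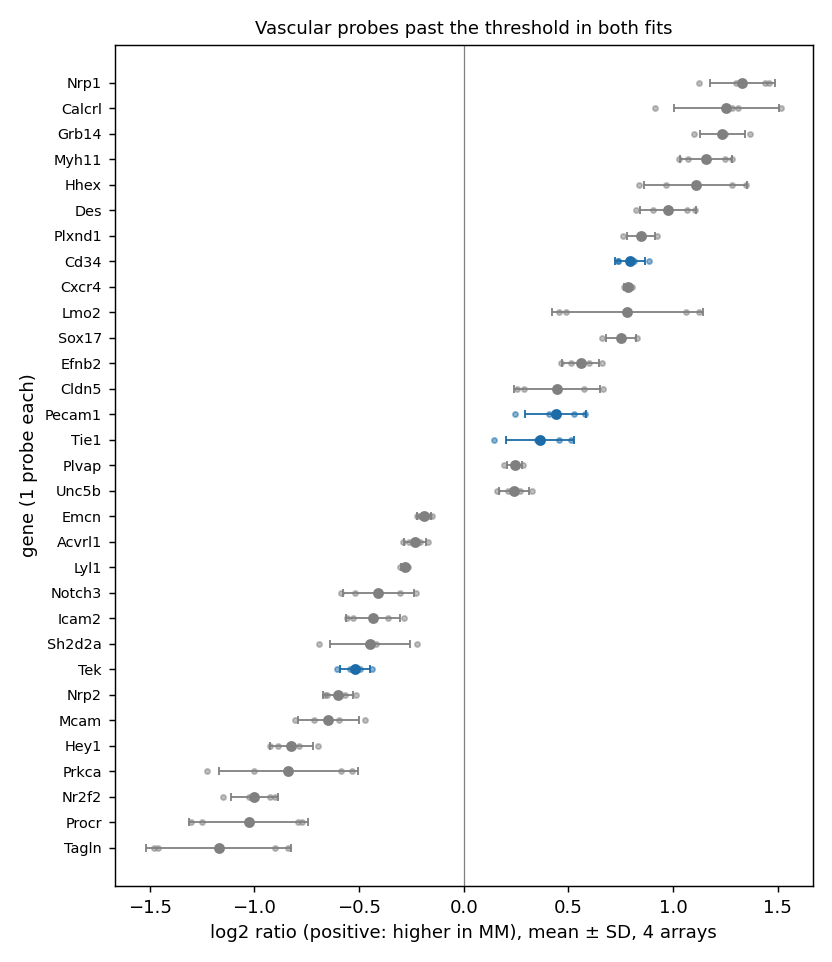
Log2 ratio of MM over IM (horizontal axis) for the 31 probes of the 10 genes (blue) and of the vascular and mural lists (grey) past the threshold in both fits and above the floor, 1 gene per line, as mean ± SD over 4 arrays with each array as a small point. There are 17 above 0 and 14 below; Nrp1 and Nrp2, and Tie1 and Tek, lie on opposite sides of 0.

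Vascular genes most like the called members were found by root mean square difference over the 4 arrays among 82 other vascular and mural probes above the floor. Cd34 was closest to Cxcr4 (difference 0.056 on the log2 scale), Sox17 (0.076) and Plxnd1 (0.095). Tek was closest to Icam2 (0.104), Nrp2 (0.140) and Mcam, an adhesion protein of mural and endothelial cells (0.142). Tie1 and Pecam1 were each other's nearest probe (0.086), and Cldn5 and Vegfa were the next for both. Cldn5, which seals endothelial junctions, differed from Pecam1 by 0.094 and from Tie1 by 0.140. All these probes share the same 4 arrays, so the distances are descriptions.

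Markers of other cells in or around vessels were read the same way. Over all tested probes 23.8% were higher and 38.1% lower in MM, and 13.6% and 14.4% in both fits. Of 12 endothelial markers, 5 of them among the 10 genes, 11 had a probe on the array. Of the 11, 4 were higher and 5 lower in MM (4 and 3 in both fits). The 4 include Cd34, Pecam1 and Tie1, and the 5 include Kdr and Tek, so these counts are partly the same probes again. The median ratio of the endothelial markers on arrays 1 to 4 was 0.21, 0.05, -0.15 and -0.10. Of 10 erythroid markers 8 had a probe, with 8 probes tested, of which 3 were higher and 3 lower (0 and 2 in both fits). Their median was -0.41, -0.38, 0.36 and 0.30 on the arrays in order. The embryonic globin Hbb-bh1 (-0.85 ± 0.13) and the erythropoietin receptor Epor (-0.48 ± 0.07) were lower in both fits, whereas the globins Hba-a1, Hba-x and Hbb-y were below 0 on arrays 1 and 2 and above 0 on arrays 3 and 4.

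Of 10 leukocyte and macrophage markers 9 had a probe, with 3 probes tested. Only the lysosomal protein Cd68 passed in both fits (-0.53 ± 0.20), as lower, where 14.4% of all tested probes did. The pan-leukocyte gene Ptprc had no value on array 3 and read -0.49, -0.36 and 0.06 on the others. Partly measured markers lay on both sides of 0. The macrophage gene Adgre1 gave 0.17, 2.05 and 1.93 on arrays 2 to 4, and Spi1 (3.21 and 3.45), Itgam (1.52 and 1.56) and both probes of Lyz2 (0.63 to 0.86) were above 0 on arrays 1 and 2, the arrays on which they had values. Tyrobp gave 0.90 and 0.28 there and the floor on array 3. Of 10 mural cell markers 9 had a probe, and all 3 that could be tested were lower in MM, Notch3 (-0.41 ± 0.17), Mcam (-0.65 ± 0.15) and Tagln (-1.17 ± 0.35). Partly measured mural markers did not share this direction. On arrays 1 and 2, the arrays on which they had values, Anpep gave 3.73 and 4.50, Rgs5 0.02 and 0.12, and Kcnj8 -1.05 and -1.27. Abcc9 was above 0 on array 1, below 0 on array 2 and had no value elsewhere. Acta2 gave 0.26 on array 1, 0.19 on array 2, no value on array 3 and the floor on array 4. In the longer mural list the contractile genes Myh11 (1.16 ± 0.13) and Des (0.97 ± 0.13), which other muscle cells also make, were higher, and the pericyte receptor Pdgfrb had 0.31 on array 1, 0.41 on array 2, no value on array 3 and the floor on array 4. The part of other cells in the ratios of Cd34, Pecam1, Tie1 and Tek was not tested.

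Genes that respond to low oxygen, a known inducer of Vegfa, had 11 tested probes outside the 10 genes, 6 higher and 3 lower in MM (6 and 2 in both fits), with a median of 0.20. That is 54.5% higher and 27.3% lower, beside 23.8% and 38.1% of all tested probes (13.6% and 14.4% in both fits). A link between these genes and the ratio of Vegfa was not tested. The glycolytic enzymes Pgk1 (0.89 ± 0.18), Hk2 (0.81 ± 0.15) and Ldha (0.63 ± 0.26) and the mitochondrial protein Bnip3 (0.52 ± 0.08) were higher, with P4ha1 (0.23 ± 0.06) and Ddit4 (0.20 ± 0.04) following. Ndrg1 (-0.43 ± 0.05) and the oxygen sensor Egln1 (-0.21 ± 0.02) were lower. Hk2 and Ndrg1 each had another, partly measured probe that disagreed between arrays: that of Hk2 gave 0.65, 0.36 and -1.08 on arrays 1 to 3, and that of Ndrg1 gave 2.29 and 1.09 and then the floor. Adm, a vascular peptide hormone, had -0.66 on array 1, -1.14 on array 2 and the floor on the remaining arrays.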

How the data were processed

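The authors deposited a log2 ratio for each probe on each array. Imagene 5.5 quantified the spots, per the labels' protocols; the channels of arrays 3 and 4 were reversed for the dye swap, a lowess curve on 20.0% of the data per point was fitted by the authors, and control values under 10 became 10. The sources used here give neither background correction nor filters. Without intensities, the height of a spot above background cannot be read, and precision is limited by the number of arrays. The lowest value, the log2 of a ratio of 0.01, was treated as a floor.

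Probes with a value on every array were fitted with limma 3.58.1 (R 4.3.3); the intercept is the tissue ratio and orientation is a covariate, and p-values were adjusted by Benjamini-Hochberg over 14184 probes at a threshold of 0.05. The same fit without the term is given beside it. The fit was run on simulated data built with an orientation effect of the form the fit assumes. That run cannot show whether calls hold where real arrays depart from that form. Errors are SDs over arrays. Platform symbols were used for the 10 genes, and other symbols were updated through gene IDs with RefSeq (GRCm38.p6); of all probes 17252 had 1 symbol, 156 several and 5294 none, and 16566 of the first kind matched. Every probe of the 10 genes is named. From each list, probes past the threshold in both fits and above the floor are named, the largest means first and at most 8. Further probes were chosen for their role after their values were seen (Hif1a, Vegfb, Angpt2, Ptprb, Cdh5, Prox1, Gja4, Ephb4, Ptprc, Adgre1, Spi1, Itgam, Lyz2, Tyrobp, Pdgfrb, Anpep, Rgs5, Acta2, Kcnj8, Abcc9, Adm, the globins and second probes of Hk2 and Ndrg1). Members, lists and tests were chosen with earlier results of these data known. Alternatives are in the closing section.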

Additional observations from a re-analysis of the deposited data

Results flagged for a closer look

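For Flt1 the ratio differed between the channel orientations, with opposite signs: arrays 1 and 2 were higher than arrays 3 and 4 by 0.81 on the log2 scale (orientation term, limma adjusted p = 0.0252). For Flt4 the same difference was 7.14 (limma adjusted p = 0.000212), but arrays 3 and 4 were at the floor, so its size is not a measured one. No array of the 10 tested probes stood apart from the other 3 by Dixon's test. That test looks for 1 array apart, so a split of 2 arrays against 2, as for Flt1 and Flt4, went unflagged.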

How the results depend on the processing

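Calls over all tested probes fell from 3371 higher and 5408 lower in MM to 1932 and 2036 without the orientation term. With each orientation averaged to 1 value, limma called 0 probes in either direction, members included, and 1526 had an unadjusted p under 0.05, of the members Cd34 alone (0.0227). On arrays 1 and 2 alone 2905 probes were lower. Leaving out 1 array gave 2480 to 2705 higher and 3295 to 4181 lower. Of the member probes, 4 were called higher and 3 lower; without the orientation term 3 were higher and 1 lower, on arrays 1 and 2 alone 5 and 1, and on arrays 3 and 4 alone 1 and 3. Flt1 gained a call on arrays 1 and 2 alone (0.44, limma adjusted p = 0.0324), as did Vegfc with arrays centred (0.12, limma adjusted p = 0.0427). Leaving out 1 array gave 1 to 4 higher and 2 to 3 lower, the lowest count of higher calls being without array 1 or array 2. Cd34 and Tek kept direction and call in 12 of 13 alternatives, all but the averaged orientations, and Pecam1 and Tie1 in 9 of 13, with the same direction in the others. Signs reversed for probes that did not pass or were at the floor: Flt1 was -0.0451 to 0.119 without 1 array (the lowest without array 4) and -0.37 on arrays 3 and 4 alone, Flt4 was 0.49 and Vegfc -0.0114 on arrays 1 and 2 alone, and Angpt1 was -0.0449 to 0.882 without 1 array (the lowest without array 3) and -0.82 on arrays 1 and 2 alone. The cause was not tested. No paired analysis was possible because both tissues of an array are already joined in its ratio.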
